A study of Mus musculus with 2 samples.

Results

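The cells described here are keratinocytes of growing mouse hair follicles (HFs) that carried transcripts of Lmo3, Adamts19 and Pcdh20, and were proposed as a part of the outer root sheath (ORS). A droplet was counted as a member when its unique molecular identifiers (UMIs, each standing for 1 captured transcript) of these 3 genes summed to at least 3 and its UMIs of Pparg, Aldh3a1 and Acsbg1, genes of sebaceous and upper follicle cells, stayed below 4. The rule was applied to the 16453 droplets with 2000 to 60000 UMIs, 1000 to 8000 genes and at most 20% mitochondrial UMIs. It found 2947 cells, 1442 of 8661 in the library labelled PADI4 WT (16.6%, 95% exact binomial interval 15.9 to 17.5) and 1505 of 7792 in the library labelled PADI4 cKO (19.3%, 18.4 to 20.2). These are called gate cells here.

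Single-cell RNA sequencing was performed on back skin keratinocytes of P1 mice, with 1 library of WT and 1 of PADI4 cKO animals, both given as batch 1. PADI4 is an enzyme that converts arginine residues of proteins to citrulline, and the study asked what its absence does to cells of the developing HF. In the PADI4 cKO animals (K14-Cre Padi4 fl/fl), Cre under the keratin 14 promoter acts in keratinocytes, where it removes Padi4, and in both groups the sorted cells carried Cre-dependent tdTomato. The epidermis was peeled off with dispase before live tdTomato-positive cells were sorted, so the libraries hold mostly HF cells, and the sources used here do not give how many animals, or of which sex, each library holds. With 1 library per genotype no test between genotypes can be made. Intervals are 95%, exact, and cover counting error only.

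The ORS is the outermost epithelial layer of the HF below the epidermis. It is continuous with the basal epidermis above and meets the matrix of the bulb below, and it rests on a basement membrane. It surrounds the inner root sheath (IRS) and the hair shaft, and in mature HFs its bulge holds the slow-cycling stem cells that renew the follicle. Lmo3 encodes a LIM-only transcriptional cofactor, Adamts19 a secreted metalloprotease of the ADAMTS family, and Pcdh20 a cell adhesion molecule of the protocadherin family.

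The libraries held 143938990 and 143945294 UMIs in all (PADI4 WT and PADI4 cKO, the order used throughout). The gate cells had a median of 13444 and 13644 UMIs, against 14258 and 16172 in all other filtered droplets and 11165 and 11567 in the comparison set of 1462 and 1108 Krt15 cells, which had at least 15 Krt15 UMIs per 10000 and lay outside the gate. Of the Krt15 cells, 19.0% and 21.4% had 4 or more of the upper follicle UMIs, so this set mixes sheath and upper follicle cells. The libraries shared 17 filtered barcodes, and 0 barcodes belonged to gate cells in both. The label PADI4 cKO could not be checked, because it is not known whether the 3 prime end counted here lies in the deleted part of Padi4. A Padi4 UMI was found in 10 of 1442 gate cells (0.693%) of PADI4 WT and in 11 of 1505 (0.731%) of PADI4 cKO, and in 1.19% and 1.11% of the other droplets. Y-linked transcripts without Xist were found in 60.4% of PADI4 WT gate cells and Xist without Y-linked transcripts in 26.6%, whereas 98.7% of PADI4 cKO gate cells had Xist alone and 0 of 1505 had Y-linked transcripts alone, for which a count of 0 leaves room for at most 0.199%. The PADI4 WT library therefore holds cells of both sexes and the PADI4 cKO library of females. Genotype, sex and animal cannot be told apart in a direct comparison. Ratios between the Xist cells of both libraries, called Xist ratios, are given beside most genes named between the libraries.

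The gate was carried by Adamts19. An Adamts19 UMI was present in 99.3% and 98.9% of gate cells, and Adamts19 alone reached the minimum in 96.7% and 95.7%. No UMI of either other gene was found in 74% and 71.2% of the cells. Lmo3 was detected in 10.7% (9.20 to 12.5) and 17.2% (15.3 to 19.2), and Pcdh20 in 18.3% and 15.6%. All 3 genes met in only 43 and 58 cells. The label thus names Lmo3 for a population in which most cells had no Lmo3 UMI at this depth.

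Over all gate cells summed, Adamts19 stood at 545 and 520 UMIs per 1000000 (CPM), against 15.3 and 13.8 in the other droplets. Lmo3 stood at 23.7 and 42.1 CPM against 0.33 and 0.334, and Pcdh20 at 18.9 and 14.7 CPM against 1.7 and 1.46. These values chose the cells and are a description. The gate cells held 88.0% and 89.5% of the Adamts19 UMIs of all filtered droplets, 93.7% and 96.6% of those of Lmo3 and 69.7% and 69.6% of those of Pcdh20. Near-empty droplets of under 100 UMIs, which show the free RNA of the suspension, had 55.6 and 48.7 CPM of Adamts19. With every cell thinned to 2000 UMIs, Adamts19 was found in 63.9% and 61.4% of gate cells but in 0.888% and 0.327% of IRS cells outside the gate. IRS cells have at least 10 UMIs of IRS keratins per 10000. The 19 and 17 of them inside the gate are not counted in that share, so it is in part set by the rule. Without thinning, the share in IRS cells outside the gate was 3.04% and 2.12%, at a median of 15604 and 17710 UMIs.

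Lmo3 and Pcdh20 were detected more often where Adamts19 was present, a description of the genes the rule used. Where Adamts19 had 3 or more UMIs, Lmo3 was detected in 9.76% and 15.1% of droplets, against 0.298% and 0.608% where Adamts19 had none. Pcdh20 was detected in 16.6% and 14.4% of the former and in 2.09% and 2.09% of the latter. Of the droplets with 3 or more Lmo3 UMIs, 94.3% and 91.9% had Adamts19.

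Droplets just below the minimum had much the same Sox9 and Lgr5 levels as cells just above it. Just inside it lay 231 and 229 cells with exactly 3 gate UMIs, and just outside 361 and 328 droplets with 2. Sox9, the transcription factor that specifies the ORS, stood at 433 and 419 CPM just inside and 399 and 393 CPM just outside. Lgr5, a Wnt-linked receptor of follicle stem and progenitor cells, stood at 540 and 621 CPM inside and 471 and 548 CPM outside. Tgfb2, which encodes a TGF-beta ligand, stood at 111 and 108 CPM inside and 114 and 156 CPM outside. Droplets with 0 gate UMIs that kept below the same upper follicle limit differed from both, with Sox9 at 101 and 83.6 CPM. The cells kept out by the upper follicle limit numbered 48 and 45.

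Of the 3 markers that the rule did not use, Tgfb2 and Nfatc1 marked the gate cells against the droplets in general and Lgr6 hardly did. Tgfb2 stood at 248 and 267 CPM in gate cells and 83.8 and 113 CPM in the other droplets (log2 ratio 1.57 and 1.24). Nfatc1, a transcription factor of quiescent bulge stem cells, stood at 179 and 184 CPM against 71.5 and 79.2 CPM (1.32 and 1.21). Lgr6, a receptor of isthmus stem cells, stood at 234 and 270 CPM against 179 and 203 CPM, a log2 ratio of 0.38 and 0.41. Against Krt15 cells, Tgfb2 was 0.83 and 0.31 higher, while Nfatc1 was lower by log2 ratios of -0.10 and -0.52 and Lgr6 by -0.59 and -0.73. Cells with 4 or more upper follicle UMIs had higher levels of all 3 than the gate cells, with Tgfb2 at 260 and 450 CPM, Nfatc1 at 307 and 368 CPM and Lgr6 at 549 and 641 CPM. None of these markers is therefore particular to the gate cells.

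**Figure D1:**
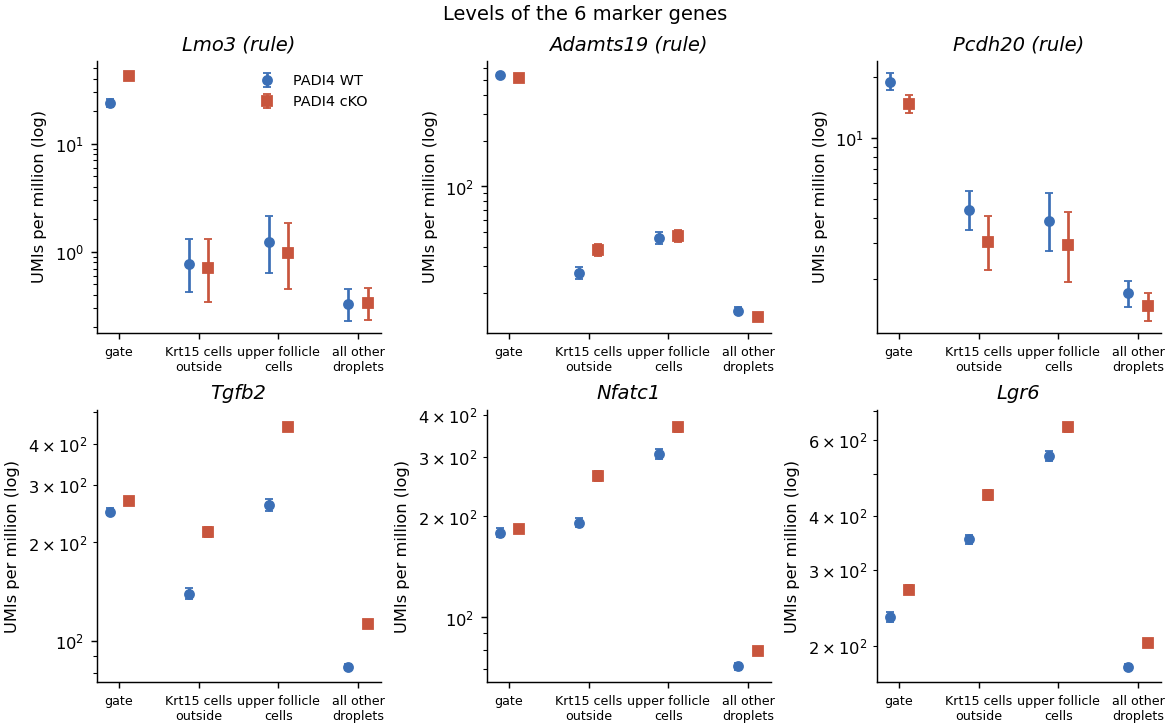
UMIs per 1000000 of the 6 marker genes (log axis) in gate cells, Krt15 cells outside the gate, cells with 4 or more upper follicle UMIs and all other droplets, for PADI4 WT and PADI4 cKO, with bars for the 95% counting interval. Lmo3, Adamts19 and Pcdh20 were used by the rule; the other 3 are higher in gate cells than in all other droplets (Tgfb2 at 248 and 267 against 83.8 and 113) and highest in the upper follicle cells.

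Most gate cells were also Krt15 cells or carried Lgr5. Among them, 39.4% and 42.7% also passed the Krt15 cut of 15 per 10000, and 62.1% and 66.7% had 5 or more UMIs of Lgr5 and Npr3 together, called Lgr5 Npr3 cells. These UMIs were nearly all of Lgr5: an Npr3 UMI was found in only 11.3% and 15.9% of gate cells. The gate took in 28.0% and 36.7% of all Krt15 cells and 37.8% and 38.8% of all Lgr5 Npr3 cells. Matrix cells (5 or more UMIs of Msx2, Dlx3 and Hoxc13) made up 11.8% and 11.3%, IRS cells 1.32% and 1.13%, and hair shaft cells 0.485% and 0.532%. Cells with fibroblast collagens numbered 3 and 2, and cells with melanocyte genes 3 and 4. A cell can pass several of these cuts. No clustering and no doublet caller was run, so droplets with 2 cells were not removed. Gate cells were called doublet-like when they passed a distant lineage's cut or exceeded 2 times the median UMIs of their library's filtered droplets. Without these, the remaining gate cells made up 14.9% and 17.6% of all filtered droplets. Doublet-like droplets stayed in that total, so the share could only fall.

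Of 12 basal, sheath and companion keratins, 0 were higher and 2 lower past the 2-fold mark in both libraries (list median 0.87). The 4 keratins of the basal layer and the ORS described next were above the level in other droplets without reaching that mark in both libraries. Krt17 stood at 2910 and 2889 CPM (log2 ratio 0.95 and 1.07), Krt5 at 2221 and 2209 CPM (0.89 and 1.13) and Krt14 at 1704 and 1344 CPM (0.65 and 0.97). Krt15 stood at 1304 and 1411 CPM (0.92 and 1.39). Keratins of other layers were low: Krt75 of the companion layer stood at 10.3 and 5.25 CPM and the IRS keratin Krt25 at 13.6 and 15.7 CPM.

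The gate was split by the Krt15 cut and the Lgr5 and Npr3 cut into 4 sets. Krt15 cells without enough Lgr5 and Npr3 UMIs (269 and 255 cells) had the highest Adamts19, 971 and 858 CPM, with Sox9 at 970 and 848 CPM and Tgfb2 at 456 and 550 CPM. Lgr5 Npr3 cells without the Krt15 level (596 and 616 cells) had Adamts19 at 417 and 395 CPM, Sox9 at 421 and 350 CPM and Tgfb2 at 128 and 135 CPM. Cells with both (299 and 388) lay between them, with Tgfb2 at 321 and 260 CPM. Cells with neither (278 and 246) had low Lgr5, 121 and 123 CPM, but Tgfb2 at 392 and 564 CPM and the highest Lmo3 of the 4 sets, 37.5 and 81.5 CPM. Col4a4, a chain of basement membrane collagen IV, stood at 221 and 222 CPM in Krt15 cells alone and at 22.4 and 28.7 CPM in Lgr5 Npr3 cells alone. The Krt15 cut is a share of a cell's UMIs and the Lgr5 and Npr3 cut a plain count, so the split also sorts cells by depth: the median was 7927 and 9266 UMIs in the former and 17590 and 18360 in the latter. Depth and set cannot be told apart here.

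The same contrast ran along the strength of the gate. From cells with under 3 gate UMIs per 10000 to those with 12 or more, Tgfb2 went from 115 to 537 CPM in PADI4 WT and from 110 to 597 CPM in PADI4 cKO. Sox9 went from 365 to 981 CPM and from 316 to 821 CPM, and Nfatc1 from 105 to 310 CPM and from 108 to 344 CPM. Lgr5 did not follow it: the 4 bins stood at 546, 709, 653 and 687 CPM in PADI4 WT and 569, 649, 724 and 709 CPM in PADI4 cKO. The sum of 15 G2 and mitosis genes ran the opposite way, from 3253 to 471 CPM and from 2060 to 252 CPM. The median depth fell along the bins from 20806 to 8533 UMIs and from 20592 to 9830 UMIs. A cell of low depth needs fewer gate UMIs to reach a high share, so depth and gate strength cannot be told apart here.

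**Figure D2:**
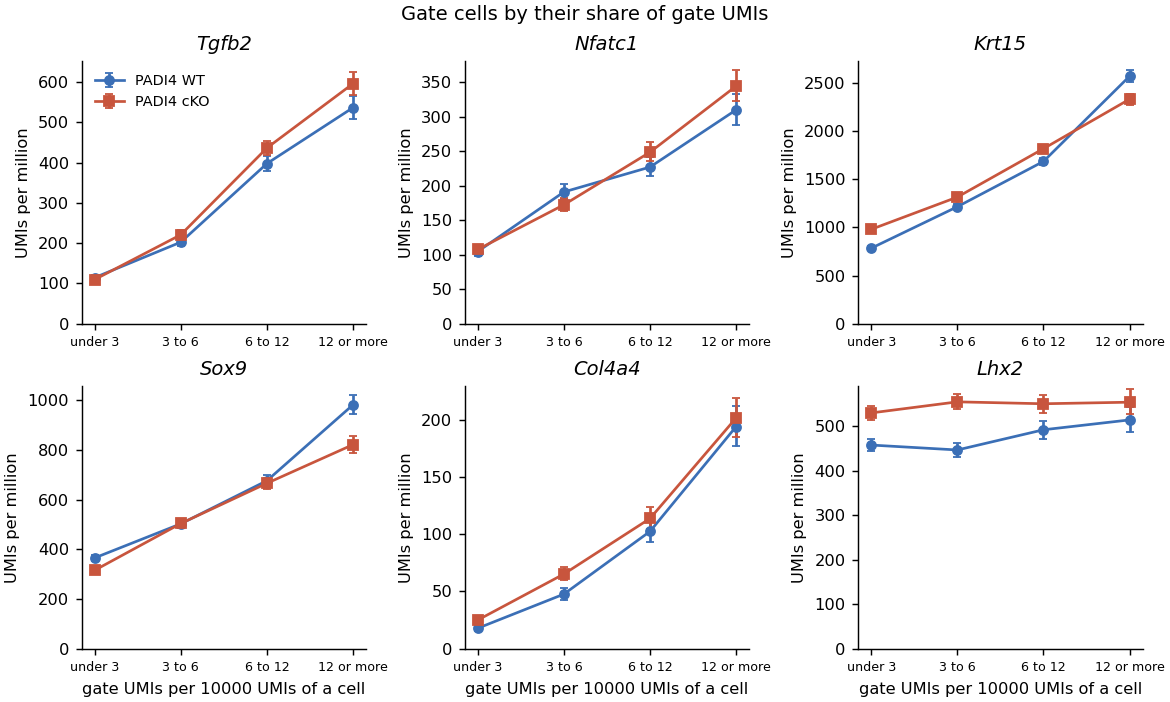
UMIs per 1000000 of Tgfb2, Nfatc1, Krt15, Sox9, Col4a4 and Lhx2 in gate cells binned by their gate UMIs per 10000 UMIs (x axis), with 95% counting intervals, for PADI4 WT and PADI4 cKO. Tgfb2 climbs from 115 and 110 in the lowest bin to 537 and 597 in the highest, while Lhx2 stays between 446 and 554.

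Set against all other droplets, 489 of 12185 genes with at least 500 UMIs were more than 2-fold higher in gate cells in both libraries, a background of 4.01%, and 353 were more than 2-fold lower, a background of 2.9%. The gate was drawn on the same cells, so these are descriptions. The median log2 ratio over all genes was 0.01. The 15 genes furthest above the other droplets included the following. Pdlim3, an actin-associated PDZ and LIM protein, stood at 35.8 and 27.4 CPM against 2.5 and 1.95 CPM (log2 ratio 3.84 and 3.81). Nlgn1, a synaptic adhesion protein, stood at 111 and 109 CPM against 13.2 and 15.9 CPM (3.06 and 2.79). Hhip, which binds Hedgehog ligands and limits their signal, stood at 23 and 35.1 CPM against 3.46 and 5.34 CPM (2.74 and 2.72). Rims1, a presynaptic scaffold, stood at 86.4 and 51.9 CPM against 13.7 and 7.86 CPM, and Kcnb2, a voltage-gated potassium channel, at 48.4 and 47 CPM against 8.08 and 7.48 CPM. Col4a3, another collagen IV chain, stood at 33.4 and 29.9 CPM against 5.57 and 4.97 CPM. The clathrin adaptor Dab2, the actin adaptor Sorbs2, the LIM protein Lmcd1, the pyrimidine-degrading enzyme Dpyd, and Scrg1, Galntl6, Nkain3, Bricd5 and Rnf150 had log2 ratios between 2.55 and 3.57.

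The genes furthest below the other droplets are in part set by the rule, which sends every cell with 4 or more upper follicle UMIs to the other droplets. Cidea, a lipid droplet protein, had 6 and 8 UMIs in all gate cells together (log2 ratio -5.35 and -5.15). Far2, a fatty acyl-CoA reductase of wax synthesis, had 15 and 16 UMIs (-3.74 and -3.94), and Elovl3, a fatty acid elongase, 3 and 0 UMIs. Sprr1a, a cornified envelope precursor, had 2 and 5 UMIs (-4.34 and -4.38). Krt25 was at log2 ratios of -3.31 and -2.81. Cyp2g1, Sdr16c6, Prr9, Syn2, Acer1, Timp4, Fbp1, Cldn4 and Nudt17 were also among the 15 lowest, each with at most 36 UMIs per library, as was Gykl1, which can share reads with close copies and is uncertain.

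Genes of the sheath and of stem cells were higher more often than lower. Of 24 sheath and stem cell transcription factors, 7 were higher and 3 lower past the 2-fold mark (list median 0.53). Sox9 stood at 541 and 504 CPM against 147 and 128 CPM (log2 ratio 1.88 and 1.98), Barx2 at 955 and 819 CPM (1.99 and 2.01) and Tbx1, a factor of slow-cycling bulge cells, at 247 and 229 CPM (1.93 and 1.93). The others higher were Id4, Nfatc1 and the Wnt effectors Tcf7l1 (1.63 and 1.65) and Tcf7l2 (1.28 and 1.27). Those lower were Gata6, a factor of the upper follicle duct (-2.03 and -1.58), Sox21 and Klf5. Lhx2, an early follicle stem cell factor, had log2 ratios of 0.58 and 0.52. Among the relatives of the rule genes, the LIM factor Lmx1b (1.69 and 1.90) was the 1 of 7 LIM-only and LIM-binding factors that was higher, with 2 lower, and Adamts20 (1.15 and 1.30) the 1 of 11 ADAMTS proteases, with 0 lower. Of 10 delta protocadherins and cadherins, 2 were higher and 3 lower (median -0.19). Of 15 bulge and isthmus genes compared, 8 were higher and 0 lower (median 1.18), among them Lgr5 at 633 and 642 CPM (1.83 and 1.68) and Dkk3 (1.86 and 1.81). Cd34, the classical marker of the adult bulge, was too low to be compared, at 1.2 and 0.855 CPM.

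Signalling genes were counted by pathway, beside 4.01% higher and 2.9% lower over all genes. Of 26 genes of the TGF-beta pathway, 6 were higher and 1 lower (median 0.32): the ligands Tgfb2, Tgfb3 (1.55 and 1.57) and Inhbb (1.60 and 1.72), the latent TGF-beta binding proteins Ltbp1 and Ltbp2, and the target Tgfbi were higher, and Tmeff1 was lower. Of 10 Wnt ligands, 1 was higher and 5 lower (median -1.05). The 1 was Wnt5b, a non-canonical ligand, at 125 and 104 CPM against 27.1 and 25 CPM (2.20 and 2.06). Of 29 Wnt receptors, inhibitors and targets, 5 were higher and 10 lower. The secreted inhibitor Sfrp1 was higher (2.18 and 2.36), as were Dkk3, the receptors Fzd2 and Fzd7, and Lgr5. The nuclear effector Lef1 stood at 130 and 108 CPM against 498 and 525 CPM (-1.94 and -2.28), and the feedback target Axin2 was lower too (-1.11 and -1.28). In the Hedgehog list of 13 genes, Hhip and the co-receptor Gas1 were higher and the ligand Shh lower (-1.83 and -2.33). The Notch list had 0 higher and 3 lower of 11, the BMP list 2 higher and 6 lower of 18, and the FGF and EGF list 3 higher and 1 lower of 18.

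Where they differed from the other droplets, genes of the basement membrane and of nerve contact were higher. Of 31 basement membrane and hemidesmosome genes, 7 were higher and 0 lower (median 0.59). Egfl6, a secreted matrix protein at which hair-associated nerve endings attach, stood at 32.6 and 23.6 CPM against 7.22 and 6.56 CPM (2.18 and 1.85). Tnc, tenascin C, stood at 226 and 200 CPM against 69.6 and 49.8 CPM (1.70 and 2.0), and Col17a1, the hemidesmosomal collagen, at 267 and 243 CPM (1.28 and 1.65). Itgb6, Postn, Dst and Nid1 were the other 4. Of 12 neurotrophic and nerve-interacting genes, 5 were higher and 0 lower (median 0.88). They were Nlgn1, the adhesion protein Nrcam (2.39 and 2.08), the neurotrophin Ntf3 (1.59 and 1.66), the GDNF family ligand Nrtn (1.33 and 1.40) and Ctnnd2. Of 27 guidance genes, 5 were higher, with the ephrin receptor Ephb1 at 138 and 120 CPM against 26.5 and 23.3 CPM (2.38 and 2.37), and 4 lower.

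Most lists of other layers had more genes lower than higher. Of 7 IRS genes, 6 were lower (median -2.56), of 12 upper follicle and junctional zone genes 2 were higher and 7 lower (median -1.59), and of 12 sebaceous genes 6 were lower (median -1.25). The rule keeps upper follicle and sebaceous cells out of the gate, so these counts are in part its doing. Of 13 matrix and progenitor genes, 1 was higher and 7 lower (median -1.58). Of 18 desmosome and gap junction genes, 3 were lower, and of 6 hair shaft genes 2. Suprabasal epidermal genes differed from this, with 1 of 8 higher and 0 lower and a sum of 593 and 493 CPM against 655 and 437 CPM, and of 8 contractile genes 0 passed. Of 5 melanocyte markers 0 were higher and 2 lower, although their sum was 141 and 162 CPM against 114 and 114 CPM. The summed fibroblast markers stood at 212 and 137 CPM in gate cells against 809 and 885 CPM in the other droplets, and endothelial and immune markers at 1.34 and 2.48 CPM.

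**Figure D3:**
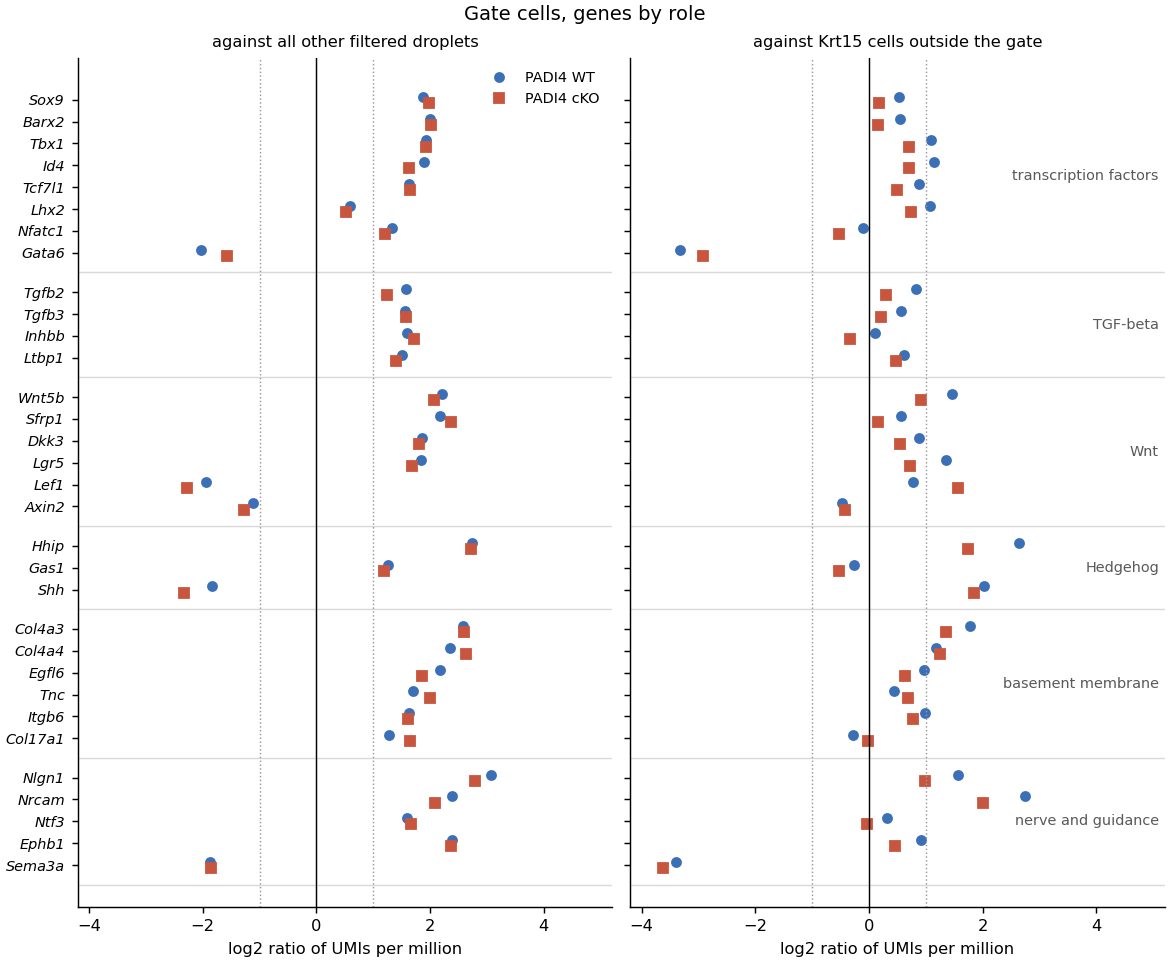
Log2 ratio of UMIs per 1000000 between gate cells and all other droplets, and between gate cells and Krt15 cells outside the gate, for named genes grouped by role, with 1 point per library and dotted lines at -1 and 1. Sox9, Tbx1, Wnt5b, Sfrp1 and Ephb1 lie to the right of 1 in the first comparison and closer to 0 in the second.

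Against Krt15 cells outside the gate the differences were fewer, with 153 of 12184 genes higher (background 1.26%) and 215 lower (1.76%), around a median of 0.04. The sheath and stem cell factors had 0 of 24 genes higher and 1 lower, Gata6 (log2 ratio -3.32 and -2.91), and a list median of -0.01. Bulge and isthmus genes had 0 of 14 higher and 2 lower (median -0.07). TGF-beta genes had 0 of 26 higher and 2 lower (median 0.07). Basement membrane and hemidesmosome genes had 1 of 31 higher and 0 lower (median -0.03). Neurotrophic and nerve-interacting genes had 1 of 12 higher and 2 lower (median -0.01). Guidance genes had 1 of 27 higher and 1 lower (median -0.06). Contractile genes had 0 of 8 higher and 4 lower (median -1.04), with sums of 520 and 454 CPM against 1094 and 1085 CPM. Wnt receptors, inhibitors and targets had 4 of 29 higher and 1 lower (median 0.24). Of 12 upper follicle and junctional zone genes 5 were lower, and of 12 sebaceous genes 4, again in part set by the rule, while 6 of 13 matrix and progenitor genes and 4 of 5 fibroblast markers were higher. The lipoprotein lipase Lpl stood at 2.67 and 1.83 CPM against 48.6 and 45.9 CPM (log2 ratio -4.17 and -4.63), and the axon-repelling ligand Sema3a at 13.6 and 16 CPM against 143 and 196 CPM (-3.39 and -3.62). Cidea, Syn2, Timp4, Sdr16c6, the defensin Defb1, Sftpc, Sh2d4a, the IGF-binding protein Igfbp2 and Zfpm2 were also among the 15 lowest. So were Clca3a1, Clca3a2, Stfa1 and Stfa3, members of families with near-identical copies whose values are uncertain. Limiting the Krt15 cells to those below the upper follicle limit, 144 of the 215 genes were still more than 2-fold lower in both libraries.

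Many of the genes higher against Krt15 cells were more abundant still in the other droplets or in free RNA. Of the 153, 52 were lower in gate cells than in all other droplets, and 76 were more abundant in the free RNA of near-empty droplets than in the gate cells of both libraries. The same was true of 3534 of the 12184 genes compared and of 8 of the 489. Krt35, a hair cortex keratin, stood at 44.6 and 46.2 CPM in gate cells, 8.51 and 8.6 CPM in Krt15 cells and 192 and 209 CPM in near-empty droplets, and 5 gate cells held 39.1% and 49.5% of its UMIs. Col3a1, a fibroblast collagen, had a log2 ratio of 6.13 and 5.91, and 5 gate cells held 99.2% and 96.8% of its UMIs. Lum and Col1a1, also fibroblast genes, and Ebf1, Krtap8-1, Lmo2, Dsg4, Plce1, Ecel1, Fut9, Ryr2, Gm49425 and Cybrd1 made up the list with Gykl1, which had 0 UMIs in Krt15 cells. Ebf1 was also higher than in the other droplets (log2 ratio 2.32 and 2.34). It stood at 20.7 and 14.9 CPM in gate cells and at 91.2 and 71.0 CPM in near-empty droplets. The part of free RNA and of mixed droplets in these values was not tested. Without the gate and Krt15 cells that were doublet-like, by lineage cut or by depth, 118 genes were higher and 250 lower.

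In 37 of 12184 genes the gate cells were higher in both comparisons, and 26 of these were also higher than the Krt15 cells below the upper follicle limit. Collagen IV chains were among the 37. On the log2 scale Col4a3 was above Krt15 cells by 1.36 or more in each library, and by 1.05 or more above those below the limit. Col4a4 stood at 64.4 and 75.7 CPM, 2.35 and 2.63 above the other droplets and 1.17 and 1.24 above Krt15 cells, but only 0.89 and 0.94 above those below the limit, and so is not among the 26. Nrcam stood at 37.7 and 48.9 CPM (2.74 and 2.01 above Krt15 cells), and Hhip was 2.64 and 1.74 above them. Shisa2, an inhibitor of FGF and Wnt receptor maturation, stood at 100 and 72.5 CPM (1.49 and 1.32), and it also missed the mark against Krt15 cells below the limit in PADI4 cKO (1.24 and 0.97). Calcium channel subunits Cacna1e and Cacnb4, the glycine receptor subunit Glrb, the netrin receptor Unc5d and the lysophosphatidic acid receptor Lpar1 were further members, at 6.86 to 48.5 CPM. In these genes, named after their values were seen, the gate cells differed from both other sets. In 64 of the 12184 genes they were lower in both.

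Between the libraries, the markers outside the rule had log2 ratios of PADI4 cKO to PADI4 WT of 0.11 for Tgfb2, 0.04 for Nfatc1 and 0.21 for Lgr6 in gate cells, with Xist ratios of 0.16, 0.07 and 0.15. The rule genes chose the cells by their summed UMIs, so their ratios within the gate are a description. Lmo3 was at 0.83 with an Xist ratio of 0.40, Pcdh20 at -0.36 with -0.26, and Adamts19 at -0.07 with -0.19. Within PADI4 WT, Xist cells had 31.9 CPM of Lmo3 and cells with Y-linked transcripts 21.7 CPM.

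Over all genes with at least 100 UMIs in gate cells, 252 of 12047 (2.09%) were higher in PADI4 cKO by more than 0.5 on the log2 scale and 377 (3.13%) lower, around a median of -0.01. The interval lay wholly beyond 0.5 for 59 and 117 of them. Between Xist cells alone, 412 genes were higher and 277 lower. The minimum of 100 UMIs was applied anew there and PADI4 WT gave 384 cells, so the genes compared and the counting error differ. In the other droplets, for which the share over all genes is not given here, 55 of those 252 and 93 of those 377 genes also passed 0.5 in the same direction. Several of the largest values were of that kind. Tmem232 was at 2.26 in gate cells and 2.49 in other droplets (Xist ratio 2.15), and the homeobox gene Meis2 at -2.33 and -2.66 (Xist ratio -3.49). The same held for Gm10260, BC023719, Hmga1b, Gm21887, Gm11361 and Gm8797, which can share reads with near-identical copies and are uncertain. Of these, Gm8797 was at -2.93 in all gate cells and at -0.51 in Xist cells.

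Cxcl10, an interferon-induced chemokine, had 42 and 163 UMIs in gate cells, a log2 ratio of 1.81 (1.33 to 2.35) against -0.04 in other droplets and an Xist ratio of 1.33. It was at 0.96 with a gate minimum of 2 UMIs, and 5 cells held 50% and 33.1% of its UMIs. Krt73, an IRS keratin, was at 1.61 (1.23 to 2.01) against -0.30 in other droplets (Xist ratio 2.49), and 5 cells held 70.8% and 68.9% of its UMIs. Chrm3 and Mecom rested on few cells. Chrm3, a muscarinic acetylcholine receptor, had 273 and 12 UMIs (-4.58, Xist ratio -6.31), and in PADI4 WT 8 cells held all of its UMIs. Mecom was at -2.60, with 98.9% and 100% of its UMIs in 5 cells, and at 2.88 in Xist cells. Igfbp2 was at -2.48 (Xist ratio -3.03) and the uncertain Stfa1, Stfa3 and Clca3a2 at -4.10, -2.11 and -2.37, with Xist ratios of -1.48, -0.22 and 2.03.

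The list with the most genes past 0.5 between the libraries was that of G2 and mitosis. Of its 15 genes, 13 were lower in PADI4 cKO gate cells by more than 0.5 (median -0.71), beside 3.13% of all genes. The proliferation marker Mki67 stood at 390 and 231 CPM, a log2 ratio of -0.76 (-0.81 to -0.71), against -0.20 in the other droplets. Cenpf, a kinetochore protein, was at -0.93, the mitotic ubiquitin enzyme Ube2c at -0.88 and Top2a at -0.62. Cdk1 at -0.39 and Ccna2 at -0.47 did not pass. The list summed to 2206 and 1350 CPM in gate cells, 2630 and 2473 CPM in the other droplets and 1232 and 665 CPM in Krt15 cells outside the gate. The S phase list had 0 of 15 genes past 0.5 in either direction (median 0.24).

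**Figure D4:**
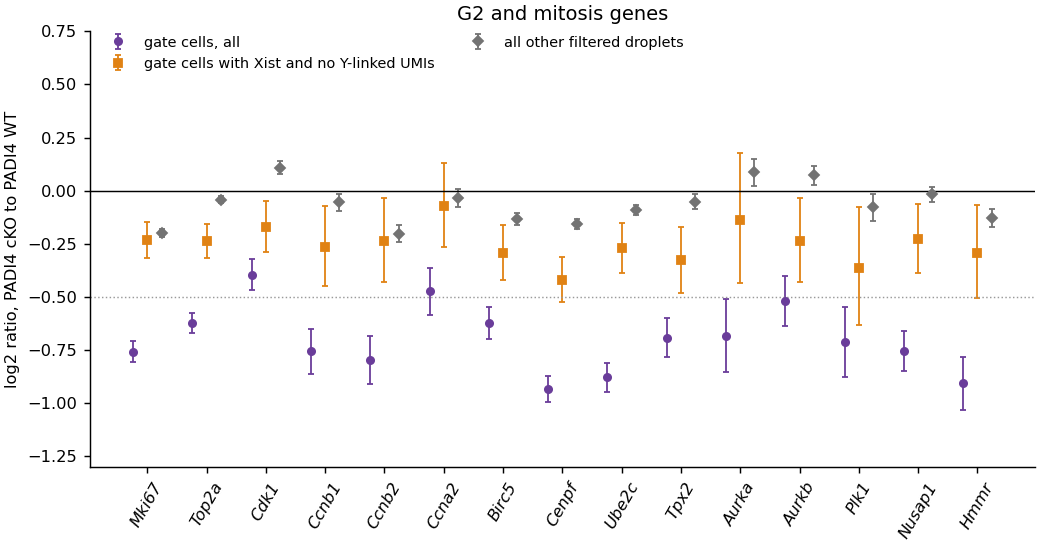
Log2 ratio of PADI4 cKO to PADI4 WT (y axis) for the 15 G2 and mitosis genes in gate cells, in the other droplets and in gate cells with Xist and no Y-linked transcripts, with 95% counting intervals and a dotted line at -0.5. In all gate cells 13 genes lie below the line, in Xist cells 0.

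The difference was smaller between Xist cells. After thinning each cell to 2000 UMIs, 3 or more UMIs of the list were found in 28.2% (25.9 to 30.6) of PADI4 WT and 19.1% (17.1 to 21.1) of PADI4 cKO gate cells. Within PADI4 WT, 871 gate cells with Y-linked transcripts had 29.6% (26.6 to 32.8) and 384 gate cells with Xist 20.1% (16.2 to 24.4), while 1486 PADI4 cKO gate cells with Xist had 18.8% (16.9 to 20.9). The 2 intervals of Xist cells overlap, and 0 of the 15 genes passed -0.5 between them (median -0.24). In the other droplets the same 3 sets of cells had 40.6%, 43.0% and 39.5%, with no gap between Y-linked and Xist cells of that size. S phase shares in gate cells were 36.9%, 45.3% and 48.5%. How many animals lie behind each set is not given in the sources used here, and sex and animal cannot be told apart.

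**Figure D5:**
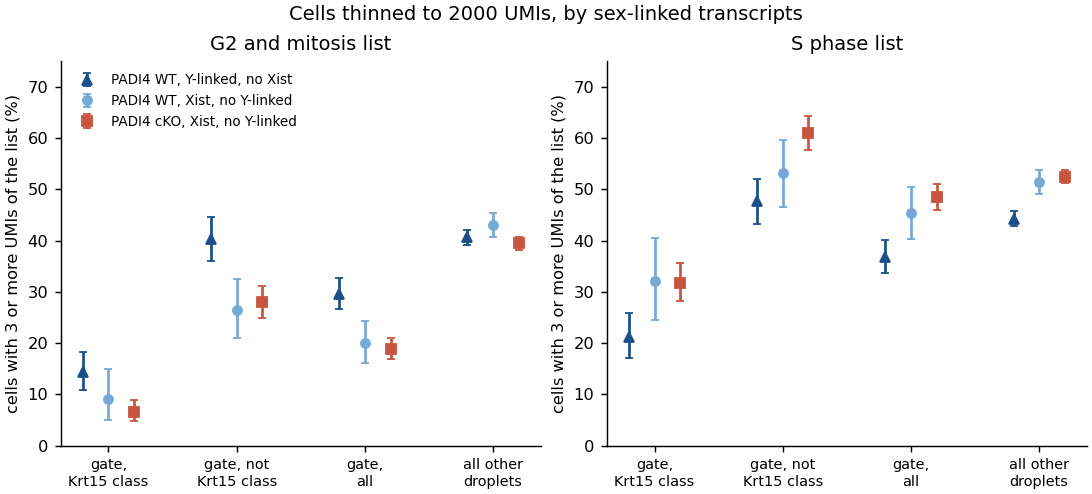
Share of cells with 3 or more UMIs of the S phase and of the G2 and mitosis lists after thinning to 2000 UMIs (y axis, %), by sex-linked transcripts, in gate cells and their comparison sets, with 95% binomial intervals. For G2 and mitosis in gate cells, PADI4 WT cells with Y-linked transcripts stand at 29.6%, and the Xist cells of PADI4 WT and PADI4 cKO at 20.1% and 18.8%.

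Of 8 D cyclin and CDK inhibitor genes, 4 were lower in PADI4 cKO gate cells by more than 0.5 and 0 higher (median -0.49), beside 3.13% of all genes. Their Xist ratios are not given here. Immediate early genes leaned the other way. Of 18, 6 were higher in PADI4 cKO gate cells by more than 0.5 and 0 lower (median 0.39), beside 2.09% of all genes. Fos stood at 206 and 313 CPM (0.61, against 0.40 in the other droplets) and Fosb at 112 and 229 CPM (1.03, against 0.80). Klf4 and Dusp1 were at 0.56 each and Atf3 at 0.59, the last against -0.42 in the other droplets. The 6th was Fosl1, with 36 and 99 UMIs. Between Xist cells Fos was at 0.53, Fosb at 0.69, Klf4 at 0.73, Dusp1 at 0.64 and Atf3 at 0.79, while Fosl1 was at 0.29. More genes passed 0.5 upward between Xist cells than between all gate cells. The 2.09% therefore does not apply to these values, and the share over all genes between Xist cells is not given here.

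Among the other peptidylarginine deiminases, Padi3 was detected in 3.26% and 3.59% of gate cells (2.59 and 2.69 CPM), and Padi2 in 1 and 0 cells. The Padi3 level was below that in the free RNA of near-empty droplets (4.59 and 4.28 CPM). How much of the Padi3 signal is free RNA was not tested.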

How the data were processed

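The counts are UMIs per gene and droplet barcode, deposited by the authors unfiltered, with no normalization. The file headers name Cell Ranger 7.1.0 and the submitters' processing notes genome build mm10; whether intronic reads were counted is not given in the sources used here. The ambient RNA removal, integration, clustering and annotation of the study were not rerun. Droplets were filtered and gated as described in the report, and UMIs summed over the cells of a set were divided by the set's total (CPM). Log2 ratios had 0.5 UMI added to each sum and exact conditional binomial intervals. Genes needed 500 UMIs over all filtered droplets or, between libraries, 100 in gate cells. A gene was counted when past 1 in both libraries or, between libraries, past 0.5. With 1 library per genotype there is no test. Rule genes, Xist and Y-linked genes stayed out of counts.

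Named genes were the 6 markers, genes of the lists, the 15 highest and 15 lowest in each comparison of gate cells (by the library nearest to 0), and between libraries the 8 with the highest lower bound and the 8 with the lowest upper bound. The members and lists were chosen with earlier results of these data known. A count of 0 allows a share of up to 3 divided by the number of cells, and this limit, like the intervals, covers counting error only. Thinned comparisons of genes used a minimum of 50 UMIs. Scripts were tested on simulated data and ran in Python 3.11.15 with NumPy 2.4.6, SciPy 1.17.1, pandas 2.3.3 and Matplotlib 3.10.9.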

Additional observations from a re-analysis of the deposited data

Results flagged for a closer look

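Krt73, an IRS keratin, differed in direction between gate cells and the rest. In PADI4 cKO it was 1.61 higher than in PADI4 WT on the log2 scale in gate cells (72 and 241 UMIs) and at -0.30 in the other droplets, at 56.2 and 45.8 CPM there. A UMI of it was found in 23 and 32 gate cells, and 5 of them held 70.8% and 68.9% of the UMIs. The difference between the 2 ratios was not tested.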

How the results depend on the processing

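Each group holds 1 library, so no replicate could be left out. No paired analysis was possible because each group holds 1 library. Of 23 alternative settings, those that moved a main value follow. The gate share was 20.8% and 23.5% with a minimum of 2 UMIs, 11.7% and 14% with 5, and 1.37% and 2.13% with Adamts19 left out. Taking doublet-like cells out of the gate but not out of the total gave 14.9% and 17.6%, a fall set by that choice. With a gene minimum of 2000 UMIs, 283 genes were higher and 211 lower than in other droplets, and 91 and 112 against Krt15 cells. With a Krt15 cut of 8 or 30 per 10000, 72 or 356 genes were higher than in Krt15 cells. Between libraries, 412 genes were higher in Xist cells alone, 392 higher and 572 lower with a gene minimum of 50, and 109 and 190 with 300. Counting all UMIs of a cell gave S phase shares of 75.9% and 83.1% and G2 and mitosis shares of 47.3% and 43.3%, so the gap in the latter narrowed. A minimum of 2 UMIs of the list gave 53.2% and 62.3%, and 33.2% and 24.4%. With Xist cells alone, an alternative chosen after seeing the data, the PADI4 WT shares were 45.3% and 20.1%, and 0 of the 15 G2 and mitosis genes passed. Mecom and Clca3a2 reversed in Xist cells, to 2.88 and 2.03. A higher gene minimum leaves fewer genes to count, and Xist cells alone give fewer UMIs in PADI4 WT. For single genes, 865 values stayed close, 189 moved and 2 reversed. The depth limits genes with few UMIs, and Lmo3 in most gate cells.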

Other observations

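Gate cells with Lmo3 UMIs (155 and 259 cells) differed in level from gate cells without them. Tgfb2 stood at 458 and 452 CPM against 225 and 230 CPM, and Col4a4 at 119 and 96.8 CPM against 58.5 and 71.5 CPM. Lgr5 was close, at 594 and 640 CPM against 637 and 642 CPM. The median depth was 12471 and 13453 UMIs against 13632 and 13718 UMIs. The droplets that passed the gate minimum but were kept out by upper follicle UMIs (48 and 45) had Tgfb2 at 474 and 651 CPM, above the gate cells, with Adamts19 at 320 and 372 CPM.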
